A study of Homo sapiens with 3 samples.

Results

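The aminoacyl-tRNA synthetases are the enzymes that join each amino acid to its transfer RNA. The 36 genes described here were chosen by name from a fixed list, 20 for the cytosol and 16 for mitochondria, out of 50495 gene names in the table. All 36 were found, each under 1 identifier, and all 36 reached 1 FPKM, a count corrected for the length of the gene and for the size of the library, which was the level asked of a gene to enter. RNA was sequenced from AGS, a human gastric adenocarcinoma cell line, after 48 h with 12 µM of a compound named SFA, with 18 µM of a compound named SFE, or with DMSO, the vehicle. There was 1 library in each of the 3 groups, all from cells in RPMI-1640 medium with serum, so a difference has no replicate check and there is no test between conditions. The sources used here do not say what the code names stand for, and the doses of SFA and SFE differ, so their values are given side by side, each against the same DMSO library.

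Protein synthesis in the cytosol and in mitochondria uses separate sets of synthetases, and the mitochondrial set is encoded in the nucleus as well. GARS and KARS serve both compartments from 1 gene each, and EPRS charges both glutamate and proline. Several cytosolic enzymes sit together in the multisynthetase complex, held by the scaffold proteins AIMP1, AIMP2 and EEF1E1. When amino acids run short or proteins misfold, the transcription factor ATF4 is known to raise many cytosolic synthetase genes together with genes of amino acid synthesis and uptake, often through a composite site called the C/EBP-ATF response element (CARE).

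A subset of cytosolic synthetase genes was higher in both treated libraries, while both sets had medians close to DMSO. The median log2 differences with SFA and SFE were 0.07 and 0.10 for cytosolic genes and 0.05 and 0.02 for mitochondrial genes. In each treated library 5 of 20 cytosolic genes passed a ratio of 5 to 4 over DMSO, where 14.8% of all genes did with SFA and 15% with SFE. That count was not above the share of all genes under every alternative. The genes were MARS, CARS, SARS, YARS and GARS with SFA, and MARS, CARS, SARS, GARS and AARS with SFE. Their ratios to DMSO lay in a narrow range, and no member reached 2-fold in either direction in either library. EPRS and QARS were lower in both treated libraries. Since both comparisons use the same DMSO library, a shared direction is not an independent check. Because RNA was taken from whole cultures, fewer cells of a kind and less RNA per cell cannot be told apart.

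The core of the CARE site, TGATGNAA, was searched on both strands of the 300 bases from 250 before to 50 after each RefSeq gene start (build GRCh38.p14). Promoters were listed for 30 of the 36 members. The motif was found for 7 of 16 cytosolic genes with a listed promoter, which is 43.8%, and for 1 of 14 mitochondrial genes (YARS2). Of all 15843 protein-coding genes with a listed promoter, 3.60% held it, and of all 22199 promoters 2.69%. All 7 cytosolic genes that held it are in a list of 12 cytosolic synthetases known as ATF4 targets, in which 10 had a listed promoter. None of the 6 other cytosolic genes with a listed promoter held it. LARS, VARS, YARS, AARS2 and VARS2 were among the members with no promoter in the table used. The 40 bases around the motif are shown for the cytosolic genes, since these genes include most of those that were higher. Each runs 5′ to 3′ on the gene's strand, with the motif in capitals.
AARS (chr16:70289670-70289709): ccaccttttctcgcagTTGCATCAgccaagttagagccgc
CARS (chr11:3057402-3057441): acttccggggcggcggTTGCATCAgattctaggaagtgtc
GARS (chr7:30594829-30594868): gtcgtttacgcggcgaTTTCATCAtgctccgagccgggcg
IARS (chr9:92293687-92293726): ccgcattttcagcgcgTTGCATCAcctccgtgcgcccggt
MARS (chr12:57488048-57488087): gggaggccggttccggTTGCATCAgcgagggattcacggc
NARS (chr18:57621799-57621838): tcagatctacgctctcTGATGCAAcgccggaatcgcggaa
TARS (chr5:33440951-33440990): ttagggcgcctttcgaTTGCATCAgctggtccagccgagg

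GARS, MARS and TARS lie on the plus strand and the other genes shown on the minus strand. The motif read TGATGCAA in 6 of the 7 genes and TGATGAAA in GARS, and it lay on the strand opposite to the gene in all but NARS. Its first base along the gene lay 2 bases before the start in CARS, 4 in MARS, 13 in IARS, 33 in GARS and 187 in AARS, and it lay at base 3 of the transcript in TARS and at base 15 in NARS. For CARS, GARS and TARS a further listed promoter lacked the motif, and positions are from the start of the promoter that held it. Counted from that start, the motif is within or beside the first bases of the transcript in most of these genes. A second motif, TGACNNNGC, the core of the antioxidant response element that NRF2 binds, was found for 4 of 16 cytosolic genes (GARS, KARS, TARS and WARS) and for 2 of 14 mitochondrial genes (NARS2 and RARS2), against 17.9% of all genes with a listed promoter. The matches of the motifs did not overlap in any member's promoter. The whole MARS promoter (chr12:57487818-57488117, plus strand) is shown because MARS had the highest ratio to DMSO in the SFA library. A match describes letters only and is not a measure of binding.
MARS: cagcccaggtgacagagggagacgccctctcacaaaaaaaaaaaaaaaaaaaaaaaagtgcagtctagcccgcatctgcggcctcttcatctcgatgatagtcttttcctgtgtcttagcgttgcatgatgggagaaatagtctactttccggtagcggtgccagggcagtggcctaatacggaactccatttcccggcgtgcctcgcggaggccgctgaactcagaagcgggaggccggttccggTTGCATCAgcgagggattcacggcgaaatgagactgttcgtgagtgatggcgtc

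The libraries held 13639844 counts with SFA, 13644676 with SFE and 18767232 with DMSO. The members took 0.603% of the counts with SFA, 0.588% with SFE and 0.554% with DMSO. Of 5 epithelial markers, KRT8, KRT18 and KRT7 were above 1 FPKM in every library, while EPCAM and KRT19 were below 1 FPKM in all 3. KRT8 stood at 223 FPKM with SFA and 232 with SFE, against 416 with DMSO, and KRT18 at 292 and 294, against 534 FPKM, while KRT7 was higher in the treated libraries, at 161 and 151, against 118 FPKM. The 5 markers summed to 677 FPKM with SFA, 678 with SFE and 1069 with DMSO. Of 10 markers of leukocytes, endothelium, fibroblasts, hepatocytes and erythroid cells, only COL1A1 and COL3A1 reached 1 FPKM, and the 10 summed to 8.40, 10.5 and 20.3 FPKM in the same order. Genes encoded in mitochondrial DNA took 1.35% of the counts with SFA, 0.743% with SFE and 1.21% with DMSO. PTPRC, of leukocytes, had 0 counts with SFA, 0 with SFE and 2 with DMSO, and ALB, of hepatocytes, had 0, 0 and 26. The part of these differences in the values of the synthetases was not tested.

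Levels between genes depend on the length used. The length implied by the deposited FPKM was within 10% of the sum of all distinct annotated exons, overlapping exons counted repeatedly, for 33 of 36 members (GENCODE 29), and its ratio to the longest protein-coding transcript ran from 1 in FARSB, MARS2 and PARS2 to 12.3 in CARS2. Deposited FPKM therefore puts genes with many annotated transcripts low, while the ratio of 1 gene between libraries is not touched. With DMSO, the deposited level was highest for VARS at 80.5 FPKM, FARSA at 66.8, QARS at 43.4, KARS at 41.5 and YARS at 37.3 FPKM. The longest coding transcript as length put the same 5 genes highest, with QARS first at 214 on the FPKM scale, then VARS at 191, FARSA at 189, YARS at 137 and KARS at 111. Cytosolic genes had a median of 29.7 FPKM with SFA, 29.3 with SFE and 24.3 with DMSO. Mitochondrial genes had a median of 5.57 FPKM with SFA, 5.74 with SFE and 5.81 with DMSO, and ran from CARS2, at 1.56 with DMSO, to YARS2, at 20.8.

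**Figure D1:**
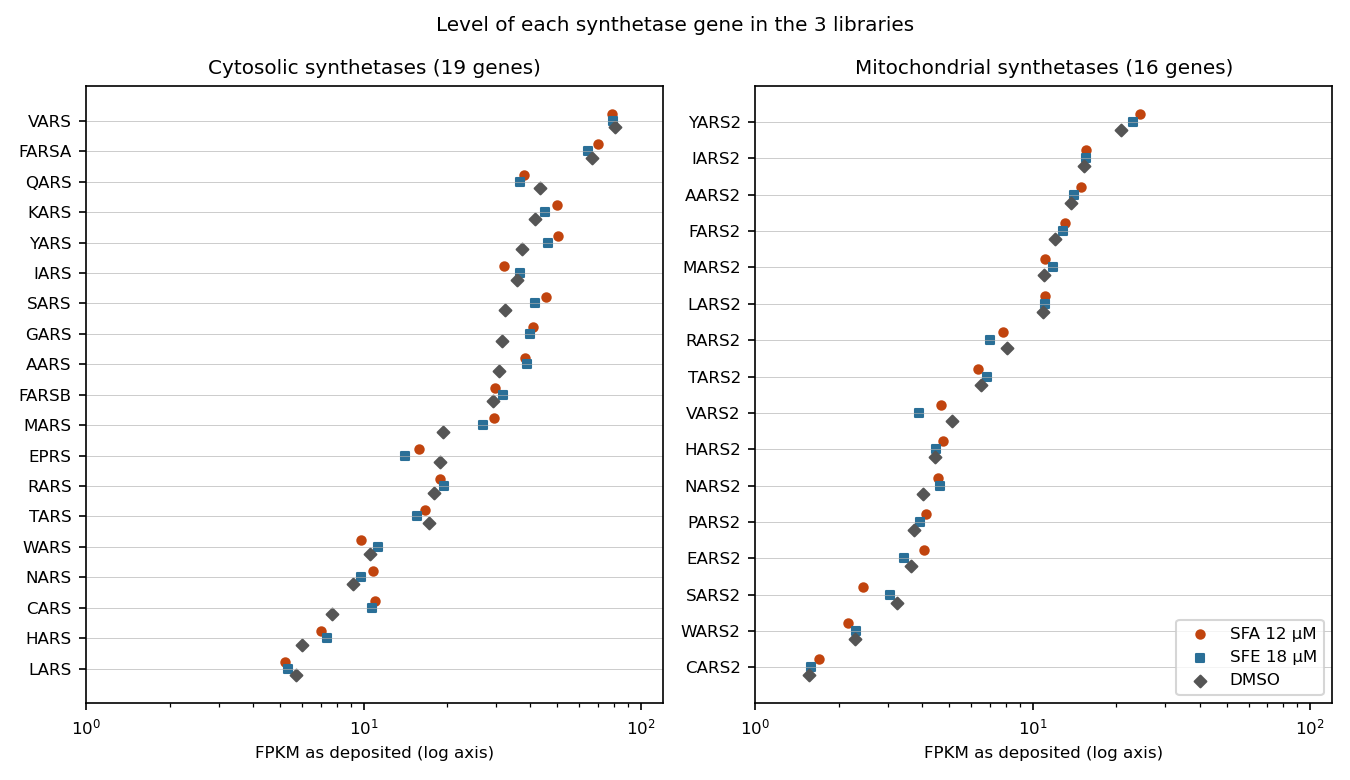
Deposited FPKM (log axis) of 19 of the 20 cytosolic genes (left) and 16 mitochondrial genes (right) in the SFA, SFE and DMSO libraries, with 1 point per library and genes sorted by the DMSO level. MARS, CARS, SARS, YARS, GARS and AARS have both treated points to the right of DMSO, while most mitochondrial genes have the 3 points close together.

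Differences were taken as log2(FPKM + 1) in the treated library minus DMSO, a scale that understates the change of low genes, and a gene was called higher or lower from a difference of 0.32, a ratio of 5 to 4. Ratios for single genes are counts over library totals, with 95% intervals for counting error only. With SFA, 5 of 20 cytosolic genes were called higher and 0 lower, where 14.8% of 11680 genes were called higher and 13.5% lower. None of the 16 mitochondrial genes was called in either direction with SFA. With SFE, 5 of 20 cytosolic genes were called higher and 1 lower, and 0 of 16 mitochondrial genes were called higher and 1 lower, where 15% of all genes were called higher and 10.1% lower. Among all genes the SFE calls turned from mostly higher to mostly lower with another scaling, to 11.8% higher and 13.6% lower under median-ratio size factors. The count of higher calls in the cytosolic set was not above the share of all genes under every alternative. With SFE it was 2 of 20 under median-ratio size factors, where 11.8% of all genes were called higher. Without genes that overlap another it was 1 of 8 in each library, where 16% of such genes were called higher with SFA and 14.9% with SFE. Several of the differences lay close to the limit. With any difference counted, 12 of 20 cytosolic genes and 11 of 16 mitochondrial genes were higher with SFA, where 51.4% of all genes were, and 13 of 20 and 12 of 16 were higher with SFE, where 55.2% were. At 2-fold, none of the 36 was called, where 1.36% of all genes were higher and 1.34% lower with SFA, and 1.37% higher and 1.01% lower with SFE. The median difference of the cytosolic genes was 0.07 with SFA and 0.10 with SFE, of the mitochondrial genes 0.05 and 0.02, and of all genes 0.01 and 0.03. The mitochondrial median turned to −0.04 with SFE under median-ratio size factors and to −0.06 under TMM factors (trimmed mean of M-values), so no direction is given for that set.

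The level summed over the 20 cytosolic genes was 602 FPKM with SFA, 585 with SFE and 546 with DMSO, and the sum over the 16 mitochondrial genes 133, 129 and 126 FPKM in the same order.

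MARS, the methionyl enzyme, which also charges the initiator transfer RNA, stood at 29.7 FPKM with SFA and 26.9 FPKM with SFE, against 19.3 FPKM with DMSO. The ratio to DMSO was 1.54 (1.48 to 1.60) with SFA and 1.39 (1.34 to 1.45) with SFE. Both treated libraries were high and DMSO low. The 3′ end of MARS overlaps 982 bases of DDIT3, the gene of the stress factor CHOP, on the opposite strand, and strand use in counting is not given in the sources used here, so reads there cannot be told apart. DDIT3 had 140 counts with SFA, 140 with SFE and 78 with DMSO, beside 6209, 5625 and 5551 counts of MARS.

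CARS, the cysteinyl enzyme, stood at 11.0 FPKM with SFA and 10.7 FPKM with SFE, against 7.68 FPKM with DMSO. Its ratio was 1.43 (1.34 to 1.52) with SFA and 1.40 (1.32 to 1.48) with SFE. CARS was high in both treated libraries, and the antisense gene CARS-AS1 that overlaps it had 30, 39 and 25 counts with SFA, SFE and DMSO, against 2210, 2163 and 2130 of CARS. SARS, the seryl enzyme, whose product also feeds selenocysteine synthesis, stood at 45.5 FPKM with SFA and 41.5 FPKM with SFE, against 32.2 FPKM with DMSO. Its ratio was 1.41 (1.35 to 1.48) with SFA and 1.29 (1.23 to 1.35) with SFE. Among the 6 genes called higher in at least 1 treated library, SARS is the only gene that overlaps no other listed gene, and it was high in both treated libraries.

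YARS, the tyrosyl enzyme, stood at 50.1 FPKM with SFA and 46.1 FPKM with SFE, against 37.3 FPKM with DMSO. Its ratio was 1.34 (1.30 to 1.39) with SFA and 1.24 (1.198 to 1.28) with SFE, and its difference with SFE, 0.30, lay just under the limit. The gene S100PBP, which overlaps YARS, had 380, 352 and 455 counts with SFA, SFE and DMSO, against 8153, 7499 and 8341 of YARS. GARS, the glycyl enzyme of both compartments, stood at 40.7 FPKM with SFA and 39.95 FPKM with SFE, against 31.5 FPKM with DMSO. Its ratio was 1.29 (1.24 to 1.36) with SFA and 1.27 (1.21 to 1.33) with SFE. Both genes were high in both treated libraries.

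AARS, the alanyl enzyme, stood at 38.4 FPKM with SFA and 39.0 FPKM with SFE, against 30.8 FPKM with DMSO. Its ratio was 1.247 (1.19 to 1.31) with SFA and 1.27 (1.21 to 1.33) with SFE, and its difference of 0.31 with SFA fell just short of the limit. AARS was high in both treated libraries and was called in 1. With SFE, CARS and MARS were the 2 cytosolic genes called higher under median-ratio size factors, where 11.8% of all genes were, and the same 2 under TMM factors, where 11.3% were. With SFA, GARS was no longer called under TMM factors, where 12.4% of all genes were called higher. Without genes that overlap another, 8 cytosolic genes were left, and SARS was the 1 called higher in each treated library, where 16% of such genes were called with SFA and 14.9% with SFE.

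EPRS and QARS were the lowest cytosolic genes relative to DMSO in the SFE library. EPRS, the bifunctional glutamyl and prolyl enzyme, stood at 15.9 FPKM with SFA and 14.1 FPKM with SFE, against 18.9 FPKM with DMSO. Its ratio was 0.840 (0.786 to 0.897) with SFA and 0.746 (0.697 to 0.799) with SFE, so it was called lower with SFE only. QARS, the glutaminyl enzyme, stood at 37.9 FPKM with SFA and 36.7 FPKM with SFE, against 43.4 FPKM with DMSO. Its ratio was 0.874 (0.849 to 0.901) with SFA and 0.846 (0.821 to 0.872) with SFE, short of the limit, although TMM factors, under which 14.6% of all genes were called lower, brought it past the limit with SFE. Both genes overlap no other listed gene and were high with DMSO and low in both treated libraries.

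The other 12 cytosolic genes were called in neither library. KARS, the lysyl enzyme of both compartments, had a difference of 0.26 with SFA and 0.12 with SFE, with 4409 counts with SFA and 3996 with SFE, against 5037 in the larger DMSO library. HARS, the histidyl enzyme, stood at 7.04 FPKM with SFA and 7.38 FPKM with SFE, against 5.98 FPKM with DMSO, and NARS, the asparaginyl enzyme, at 10.8 and 9.77 FPKM, against 9.14 FPKM with DMSO. By FPKM, KARS, HARS and NARS were highest in a treated library. HARS overlaps WDR55, with 800, 787 and 1056 counts with SFA, SFE and DMSO, against 1202, 1260 and 1405 of HARS. HARS also overlaps DND1 and HARS2, so its value is uncertain. IARS, the isoleucyl enzyme, had a ratio of 0.893 (0.862 to 0.926) with SFA and 1.02 (0.984 to 1.06) with SFE, and WARS, the tryptophanyl enzyme, which interferon is known to raise, had 0.931 (0.886 to 0.979) and 1.07 (1.02 to 1.12). TARS, the threonyl enzyme, had ratios of 0.961 (0.912 to 1.01) and 0.903 (0.856 to 0.952) in the same order. VARS, the valyl enzyme and the most abundant by deposited FPKM, had ratios of 0.980 (0.956 to 1.004) with SFA and 0.986 (0.962 to 1.01) with SFE. FARSA and FARSB, the subunits of the phenylalanyl enzyme, had ratios of 1.05 and 1.01 with SFA and of 0.967 and 1.08 with SFE. LARS, the leucyl enzyme, and RARS, the arginyl enzyme, had ratios between 0.912 and 1.09.

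**Figure D2:**
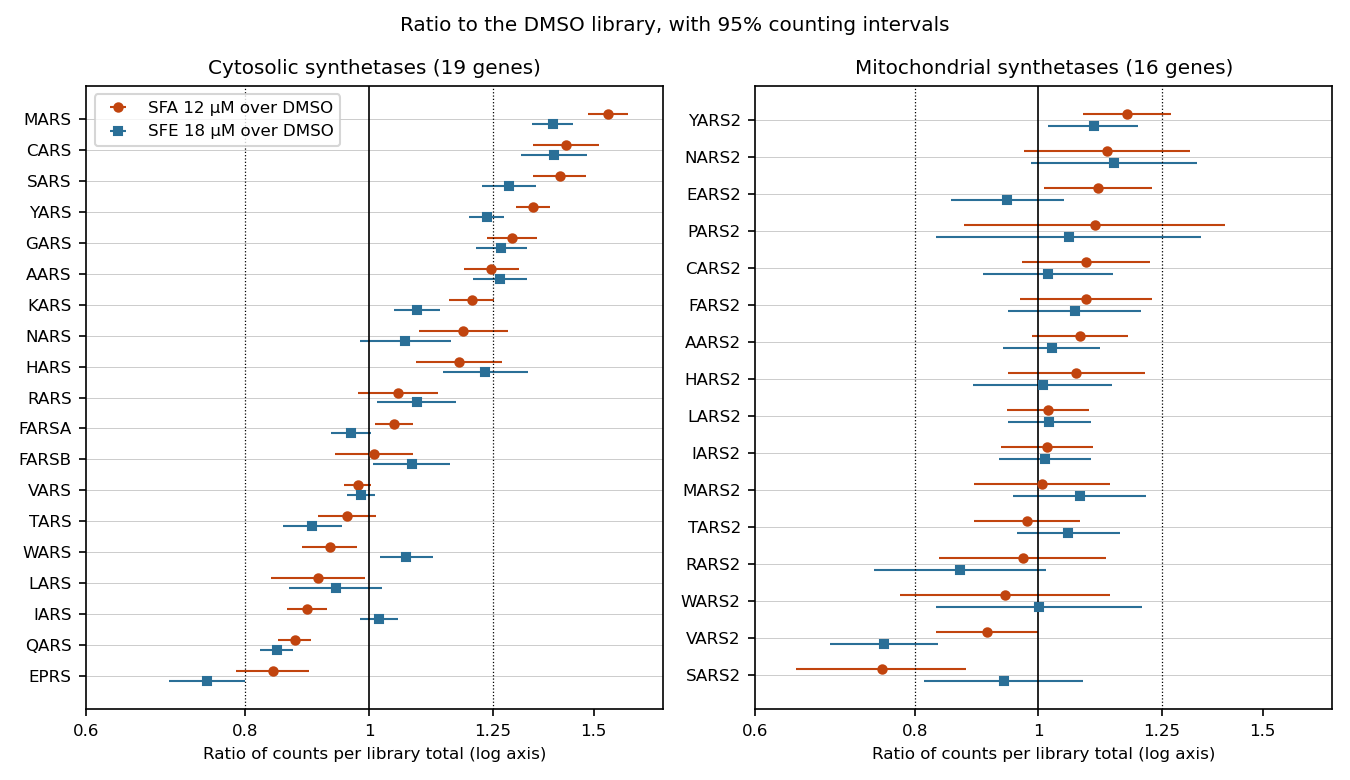
Ratio of each gene's counts per library total to the DMSO library (log axis) for 19 of the 20 cytosolic genes (left) and the 16 mitochondrial genes (right), with 95% counting intervals as bars, a solid line at 1 and dotted lines at ratios of 5 to 4 and 4 to 5. MARS lies highest with SFA at 1.54 and CARS with SFE at 1.40, and EPRS lies lowest of the cytosolic genes at 0.840 and 0.746.

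The cytosolic genes were also grouped by known roles. Their counts of calls stand beside 14.8% of all genes called higher and 13.5% lower with SFA, and 15% and 10.1% with SFE. With SFE, CARS and MARS alone were still called higher under median-ratio size factors or TMM factors. The 12 cytosolic synthetases known as ATF4 targets had a median difference of 0.27 with SFA and 0.19 with SFE, and 5 were called higher in each library. Within that set EPRS, IARS, LARS, NARS, TARS and WARS were called higher in neither library, and EPRS was called lower with SFE. The 8 cytosolic genes outside that list had a median of 0.04 in each library, and 0 were called. The list was chosen with earlier results of these data known, so this split is not an independent check. The 8 synthetases of the multisynthetase complex, among them EPRS, IARS, KARS, LARS, MARS, QARS and RARS, had a median of −0.06 with SFA and −0.00 with SFE, and MARS was the 1 called higher in each. The 12 cytosolic genes outside the complex had a median of 0.21 with SFA and 0.19 with SFE, with 4 called higher in each. Among the 7 cytosolic genes with a CARE motif the median was 0.31 with SFA and 0.33 with SFE, with 3 called higher with SFA and 4 with SFE. Among the 9 whose listed promoters lacked these letters it was 0.06 with SFA and 0.11 with SFE, and SARS was the 1 called higher in each library. Among the 4 with no listed promoter it was −0.01 with SFA and −0.02 with SFE, and YARS was the 1 called higher with SFA. The ranges overlapped: the motif group ran from −0.16 (IARS) to 0.60 (MARS) with SFA, and the group without the motif from −0.24 (EPRS) to 0.48 (SARS).

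**Figure D3:**
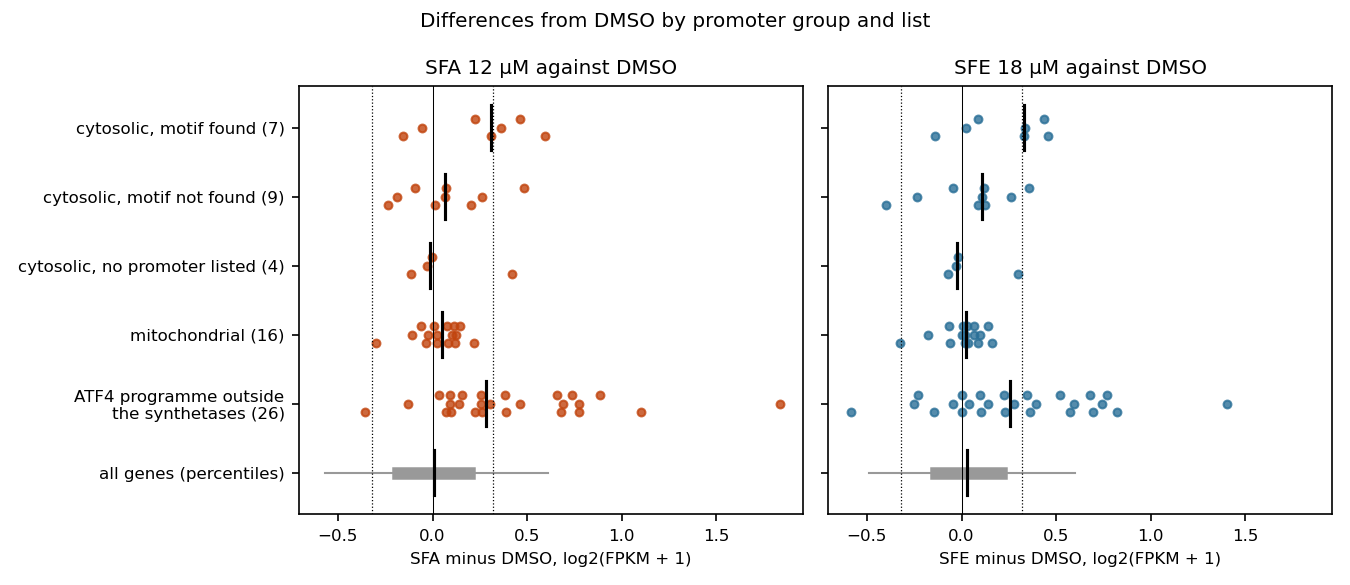
Difference from DMSO on the log2(FPKM + 1) scale with SFA (left) and SFE (right), 1 point per gene, for cytosolic genes by the CARE motif in their promoters, mitochondrial genes and 26 genes of the ATF4 programme, with medians as black bars and dotted lines at the limit of 0.32. The thick grey bar runs from percentile 25 to 75 of all genes and the thin grey line from percentile 5 to 95. The motif group has medians of 0.31 and 0.33, and the mitochondrial genes have medians of 0.05 and 0.02.

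The differences of the mitochondrial genes ran from −0.30 to 0.22 with SFA and from −0.33 to 0.16 with SFE. These are on the log2(FPKM + 1) scale, which understates the change of low genes, so count ratios are given as well. SARS2, the mitochondrial seryl enzyme, stood at 2.45 FPKM with SFA and 3.05 FPKM with SFE, against 3.25 FPKM with DMSO, with ratios of 0.754 (0.646 to 0.878) and 0.940 (0.814 to 1.08). VARS2, the mitochondrial valyl enzyme, stood at 4.67 FPKM with SFA and 3.87 FPKM with SFE, against 5.12 FPKM with DMSO, with ratios of 0.912 (0.832 to 0.9996) and 0.757 (0.687 to 0.834). SARS2 was low with SFA and VARS2 with SFE, and VARS2 with SFE was the 1 call in the set. SARS2 with SFA, at −0.30, was called lower with a pseudocount of 0.1, under median-ratio size factors and under TMM factors, where 18.9%, 15.2% and 16.4% of all genes were. Without overlapping genes VARS2 was not tested and 0 of 3 mitochondrial genes were called lower with SFE, where 10% of such genes were. VARS2 overlaps GTF2H4 on the same strand over 5865 bases, and GTF2H4 had 759, 915 and 1022 counts with SFA, SFE and DMSO, against 777, 645 and 1172 of VARS2, so its value is uncertain. SARS2 overlaps MRPS12, with 1309, 1190 and 1570 counts against 263, 328 and 480 of SARS2, and is uncertain too. YARS2, the mitochondrial tyrosyl enzyme, was the highest above DMSO with SFA, with 24.4 FPKM with SFA and 22.9 FPKM with SFE, against 20.8 FPKM with DMSO, and ratios of 1.17 (1.08 to 1.27) and 1.11 (1.02 to 1.199). It overlaps DNM1L over 18161 bases, with 579, 579 and 876 counts against 1137, 1071 and 1333 of YARS2, and is uncertain too. The other 13 genes had differences between −0.18 (RARS2 with SFE) and 0.16 (NARS2 with SFE). Among them EARS2 overlaps UBFD1, with 1948, 1965 and 2614 counts against 752, 638 and 928 of EARS2, and is uncertain too. HARS2 overlaps HARS and ZMAT2, so the same holds for HARS2. Counts of mitochondrial genes ran from 126 to 1655 per library, against up to 15444 for cytosolic genes, so a ratio such as that of PARS2 with SFA, 1.11, had a wide interval of 0.874 to 1.40.

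Cytosolic and mitochondrial enzymes for the same amino acid were set side by side in 13 pairs of 1 gene each. The cytosolic gene had the higher level in 12 of 13 pairs in each library, with LARS and LARS2 the exception, and in 12 of 13 also with the longest coding transcript as length. SARS was 18.6 times SARS2 by FPKM with SFA and 13.6 times with SFE, against 9.92 times with DMSO. MARS was 2.67 times MARS2 with SFA and 2.26 times with SFE, against 1.75 times with DMSO. CARS was 6.46 times CARS2 with SFA and 6.76 times with SFE, against 4.93 times with DMSO. The size of these ratios depends on the length used, while their change between libraries does not. With the longest coding transcript as length, DMSO levels were 96.9 for SARS and 12.4 for SARS2, and 102 for MARS and 11.0 for MARS2. They were 41.2 for CARS and 19.1 for CARS2. The difference from DMSO was greater for the cytosolic gene than for its mitochondrial partner in 9 of 13 pairs with SFA and in 10 of 13 with SFE. For methionine the differences were 0.60 for MARS and 0.01 for MARS2 with SFA, and 0.46 and 0.10 with SFE. EPRS has separate mitochondrial counterparts for each of its amino acids: EARS2 had a difference of 0.12 with SFA and −0.06 with SFE, and PARS2 0.12 and 0.06, against −0.24 and −0.40 for EPRS.

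**Figure D4:**
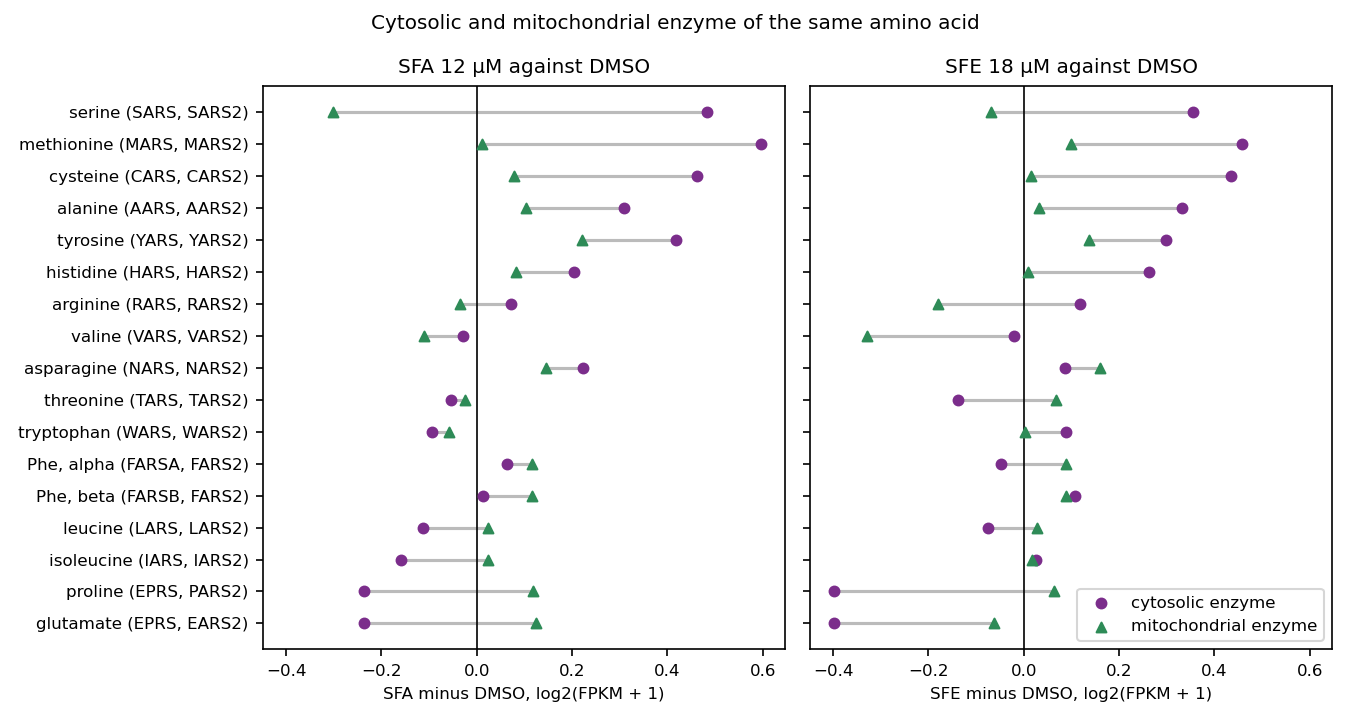
Difference from DMSO on the log2(FPKM + 1) scale with SFA (left) and SFE (right) for the cytosolic enzyme (circles) and the mitochondrial enzyme (triangles) of each amino acid, sorted by the gap with SFA. Serine and methionine have the largest gaps with SFA, and the EPRS pairs for proline and glutamate lie the other way.

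Genes that work beside the synthetases gave few calls. Of all genes, 14.8% were called higher and 13.5% lower with SFA, and 15% and 10.1% with SFE. The scaffolds of the multisynthetase complex gave 0 calls of 3: AIMP2 stood at 25.2 FPKM with SFA and 23.2 FPKM with SFE, against 23.8 FPKM with DMSO, AIMP1 at 1.88 and 1.48, against 1.63 FPKM, and EEF1E1 at 7.62 and 8.08, against 8.05 FPKM. Of 22 other genes of transfer RNA charging and delivery, 18 reached 1 FPKM, with a median difference of 0.05 with SFA and −0.08 with SFE. Of these, 0 were called higher in either library, 1 was called lower with SFA and 0 with SFE. The 1 called was DTD2, at 1.18 FPKM with SFA and 1.57 FPKM with SFE, against 1.73 FPKM with DMSO. The log2(FPKM + 1) scale understates the change of low genes, and AARSD1 was not called with SFA despite a count ratio of 0.727 (0.599 to 0.881).

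A list of 26 genes of the ATF4 programme outside the synthetases, also chosen with earlier results of these data known, was set beside the synthetases. With SFA 12 were called higher and 1 lower (median difference 0.28), and with SFE 12 higher and 1 lower (median 0.25). Of all genes, 14.8% were called higher and 13.5% lower with SFA, and 15% and 10.1% with SFE. SLC7A11, the cystine importer, stood at 19.4 FPKM with SFA and 14.1 FPKM with SFE, against 4.72 FPKM with DMSO. CHAC1, a glutathione-degrading enzyme, stood at 3.74 FPKM with SFA and 2.76 FPKM with SFE, against 1.204 FPKM with DMSO. Asparagine synthetase, ASNS, which is an amidating enzyme and not a transfer RNA synthetase, had ratios of 2.01 (1.85 to 2.19) with SFA and 1.92 (1.76 to 2.09) with SFE. CEBPB, a C/EBP transcription factor, had ratios of 1.76 (1.57 to 1.98) and 1.54 (1.37 to 1.74), and PSAT1, an enzyme of serine synthesis, 1.72 (1.64 to 1.81) and 1.63 (1.55 to 1.71), in the same order. These 5 genes were named for their large differences within the list, so their ratios, above those of every synthetase, do not describe the list. The median differences of the list, 0.28 with SFA and 0.25 with SFE, stand beside 0.07 and 0.10 for the 20 cytosolic synthetases. For the 12 cytosolic synthetases known as ATF4 targets the medians were 0.27 and 0.19. ATF4 itself stood at 127 FPKM with SFA and 102 FPKM with SFE, against 102 FPKM with DMSO, and its activity is known to be set mainly by translation of its messenger RNA. The genes called lower are named after their values were seen. PYCR1, a proline synthesis enzyme, was the 1 called lower with SFE, at 22.02 FPKM with SFA and 13.4 FPKM with SFE, against 20.6 FPKM with DMSO. DDIT4 was the 1 called lower with SFA, at 71.0 FPKM with SFA and 76.6 FPKM with SFE, against 91.4 FPKM with DMSO.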

How the data were processed

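RNA was measured in 3 libraries of AGS cells, 1 per group. The submitters' processing notes name the tools HISAT2 2.0.4 and StringTie 1.2.3 and the build hg38, without a role for each. Which tool counted, with which strand setting and annotation, is not given in the sources used here. Deposited counts are raw whole numbers per gene. The FPKM deposited by the authors is the count over 1 length per gene and the library total. The members and lists were chosen with earlier results of these data known. The rule for naming took all members, in full those past a ratio of 5 to 4 against DMSO, and up to 5 genes with the largest difference from each other list. Genes at 1 FPKM or more in any library entered, which left 11680. Where identifiers shared a name, the highest mean FPKM was kept. Differences used a pseudocount of 1. Ratios have exact conditional (Clopper-Pearson) 95% intervals, for counting error only. They were checked on data simulated with counting error alone, so the check covers neither differences between cultures nor scaling. The values of 1 cytosolic member are not reported here, though it counts in the totals. Of 36 members, 25 overlap another listed gene. Alternatives were a pseudocount of 0.1, a filter of 5 FPKM or none, median-ratio size factors, TMM factors (edgeR 4.0.16), dropping overlapping genes and, added after seeing the data, protein-coding genes only and another gene length. Promoters are from RefSeq (GRCh38.p14), matched through the table of symbols by gene ID; 37 of 39 member promoters matched a GENCODE 29 transcript's sequence after the start. Python 3.11.15, pandas 2.3.3 and scipy 1.17.1 were used.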

Additional observations from a re-analysis of the deposited data

How the results depend on the processing

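With 1 library per group no replicate could be left out, and depth limits the ratios of members with low counts, which include most mitochondrial genes and LARS. No paired analysis was possible because each group has 1 library. Without overlapping genes, 16% of all genes left were called higher with SFA and 14.9% with SFE. Cytosolic genes called higher numbered 1 there with SFA and 1 with SFE, of 8 left. With SFA they numbered 4 under TMM factors, with GARS lost. With SFE they numbered 2 under median-ratio size factors and 2 under TMM factors, which lower every SFE value by 0.08 and 0.10 on the log2 scale (0.03 and 0.06 with SFA). Cytosolic genes called lower with SFE numbered 2 under TMM factors, with QARS added. Mitochondrial genes called lower with SFA numbered 1 (SARS2) with a pseudocount of 0.1, 1 under median-ratio size factors and 1 under TMM factors, and with SFE 0 without overlapping genes, of 3 left. Cytosolic medians with SFA ran from −0.01 without overlapping genes to 0.07, and with SFE from 0.01 under TMM factors to 0.11 at a filter of 5 FPKM. The mitochondrial median with SFA was −0.00 under TMM factors and −0.03 without overlapping genes, and with SFE −0.04 under median-ratio size factors and −0.06 under TMM factors. Under median-ratio size factors 0 of 72 ratios of single members crossed 1 where their interval excluded it, and 12 left their interval.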

Other observations

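By enzyme class, the 10 class II cytosolic genes had a median difference of 0.21 with SFA and 0.12 with SFE, and the 9 class I genes −0.03 and 0.09. EPRS, which joins both classes, was left out of each. Mitochondrial ribosomal protein genes, 75 of 77 at 1 FPKM or more, had medians of 0.11 with SFA and 0.11 with SFE, with 14 called higher and 5 lower with SFA, and 12 higher and 3 lower with SFE. Cytosolic ribosomal protein genes, 82 of 86, had medians of 0.03 and −0.05, with 3 called higher and 2 lower with SFA, and 1 higher and 4 lower with SFE. Of all genes, 14.8% were called higher and 13.5% lower with SFA, and 15% and 10.1% with SFE. XPOT, the nuclear exporter of transfer RNA, had ratios of 0.894 (0.849 to 0.941) with SFA and 0.909 (0.864 to 0.957) with SFE.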
